A study of Mus musculus with 18 samples.

Results

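The difference between heart and kidney fibroblasts in their response to transplantation was measured in 12 of the 18 bulk RNA-seq libraries of the study, 3 each of transplanted heart fibroblasts (HFs), cultured heart fibroblasts (HFc), transplanted kidney fibroblasts (KFs) and cultured kidney fibroblasts (KFc). The response of an organ was the log2 change from cultured to transplanted cells, and the quantity tested for each gene was the heart response minus the kidney response. A positive value therefore means that the change after transplantation was more upward in heart fibroblasts, and a negative value that it was more upward in kidney fibroblasts. All 12 libraries were chosen by their labels, and no measured value was used to choose them, although earlier results of these data were known. The gene lists below were also chosen with those results known. The other 6 libraries, of transplanted and cultured tail fibroblasts (TFs and TFc), entered the fit but not the comparison.

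Donors are given as 10-week-old male Rosa mT/mG mice, which carry a membrane TdTomato reporter in every tissue and were on a C57BL/6 background, and their fibroblasts had been cultured for 10 days. Cells soaked into gelatin foam were placed under the kidney capsule of C57BL/6J recipients aged 10 to 11 weeks, and 3 days later live CD45- TdTomato+ cells were sorted from the kidneys as HFs and KFs. The cells left over from the same isolation were replated to give HFc and KFc. For the isolation the study refers to its general fibroblast protocol, which includes a sort for CD90+ CD45- CD31- cells, and whether that sort was applied to these donor cells is not given in the sources used here. Host site, foam, surgery and the sort after transplantation were thus shared by HFs and KFs and absent from HFc and KFc, and no group was placed in a heart. TdTomato in these mice is not restricted to fibroblasts, so the reporter marks donor origin and not cell type. The libraries of a group are called biological replicates, but the labels do not say which animals or cultures they came from, so p-values measure the spread between these libraries.

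Fibroblasts produce and remodel the extracellular matrix, and those of different organs keep distinct programmes of positional (Hox) and developmental genes in culture. Culture on plastic drives fibroblasts towards a contractile, proliferating state. A graft under the kidney capsule meets tissue injury, low oxygen and a vascular bed that has not yet grown into it.

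Library totals of the 12 libraries lay between 18428401 and 31534743 counts, and a count of 3, taken as the floor of detection, was worth 0.0962 to 0.18 CPM (a gene's count relative to its library's size, after edgeR's TMM scaling). One library, KFs replicate 3, stood apart and went against its label. Its title carries the same kind of code as the others but its library name gives only kidney fibroblasts, and it held *Xist* at 1490 CPM, where no other library exceeded 0.404 CPM, and Y-linked genes at a summed 0.722 CPM against 175 to 230 CPM elsewhere, although the donors are given as male. Its epithelial adhesion and keratin markers summed to 394 CPM against 39.5 to 52.8 CPM in the other KFs and 74.1 to 88.4 CPM in KFc, with *Cdh16* at 58.8 CPM and *Epcam* at 10.4 CPM. Its summed fibroblast markers were 30700 CPM against 81600 and 105000 CPM in the other KFs. The test was therefore run with and without the library labelled KFs replicate 3, as fits of 18 and of 17 libraries, and calls are those made in both. Where a difference is given as 1 value, it comes from the 18-library fit. HFs replicate 2 held proximal tubule markers at a summed 2240 CPM, against 328 and 377 CPM in the other HFs and 261 to 323 CPM in KFs. Fibroblast markers were abundant in all 12 libraries, with summed levels of 24400 CPM or more, and leukocyte and macrophage markers summed to 122 to 203 CPM in HFs, 133 to 156 CPM in HFc, 41.3 to 191 CPM in KFs and 573 to 627 CPM in KFc. In such bulk samples a lower number of cells of a type and less RNA per cell cannot be told apart.

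Heart and kidney fibroblasts responded differently for a large share of the transcriptome. With all 18 libraries, 4347 of 16577 tested genes (26.2%) differed in their response at an adjusted p under 0.05, of which 1770 (10.7%) were higher in heart and 2577 (15.5%) higher in kidney. Without KFs replicate 3, 5962 of 16923 genes (35.2%) differed, 3047 (18%) higher in heart and 2915 (17.2%) higher in kidney. In both fits and in the same direction, 4029 of 16577 genes (24.3%) differed, 1750 (10.6%) higher in heart and 2279 (13.7%) higher in kidney, and no gene was called in opposite directions. Without HFs replicate 2, 3249 genes were called with the remaining 17 libraries, 1688 of them higher in kidney, and with library size alone in place of TMM the split was 1474 higher in heart and 3248 higher in kidney, against 2010 and 2188 with DESeq2 size factors. Genes are described below as differing when they were called in both fits, and these shares over all genes are the background for every list. A gene called higher in heart or in kidney had the higher response there, which does not mean the higher level. Small counts were unstable. Of 35 counts of 1 to 3 list members in a direction, 23 moved by over 1.5 times when 1 heart or kidney library was left out. The median difference over all tested genes was -0.03 with 18 and 0.10 with 17 libraries.

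The organ that moved was read from the 2 responses, each called at an adjusted p under 0.05 and a log2 change above 1 or below -1, with the kidney response taken without KFs replicate 3. Of the 1750 genes with the higher response in heart, 553 rose in heart without a call in kidney, 357 fell in kidney without a call in heart, 92 rose in heart and fell in kidney, 145 rose in both, 62 fell in both and 541 had no call in either organ. Of the 2279 genes with the higher response in kidney, 514 fell in heart without a call in kidney, 373 rose in kidney without a call in heart, 60 fell in heart and rose in kidney, 30 rose in both, 80 fell in both and 1222 had no call in either. Most differences thus came with a call in a single organ or in neither, and opposite calls were a minority in both directions. Read by state instead, 1178 of the 4029 genes differed between heart and kidney in culture only, 1420 after transplantation only and 1300 in both states, 911 of these in opposite directions. Protein-coding genes made up 14533 of the genes tested in both fits, and 26.6% of them differed.

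**Figure D1:**
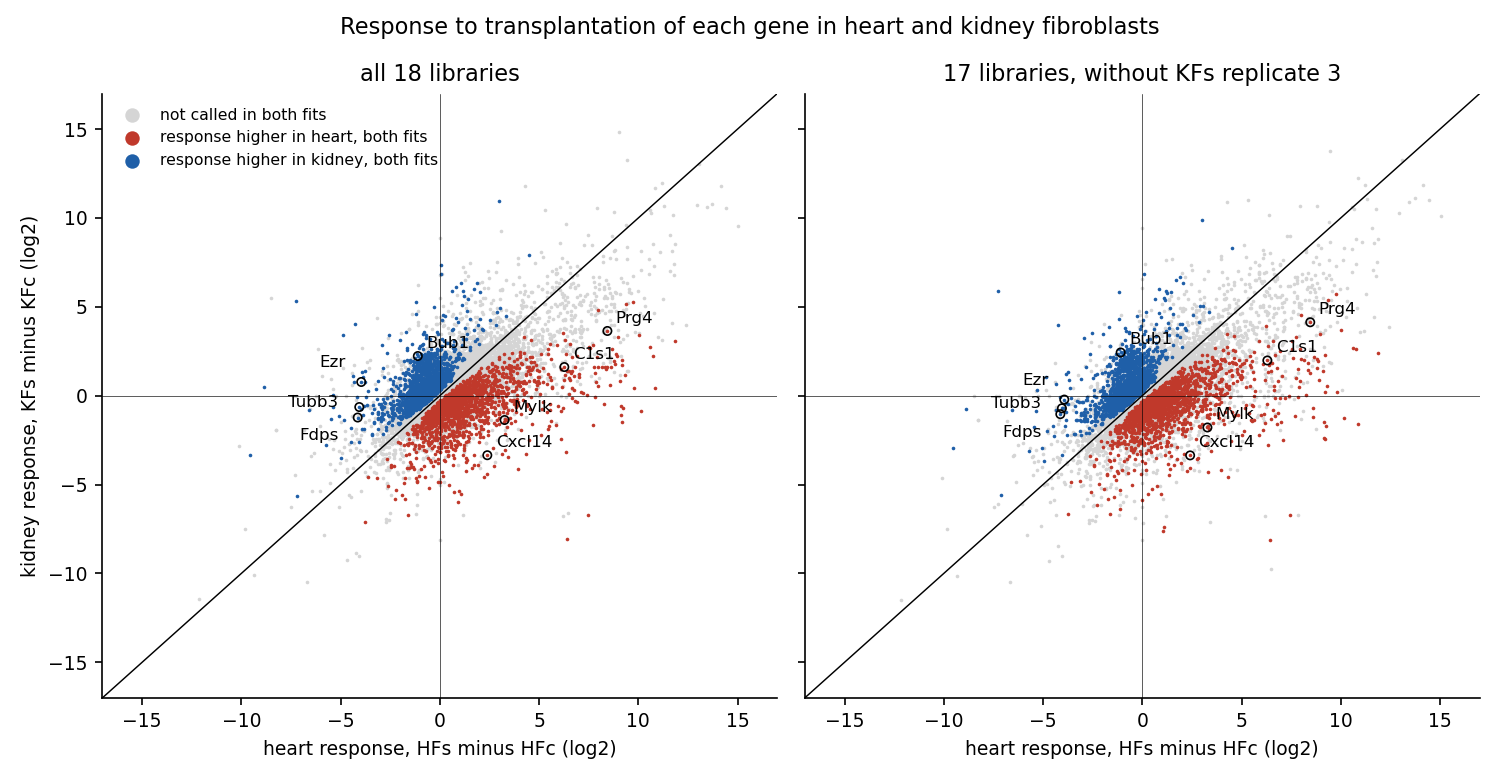
Response to transplantation (log2, transplanted minus cultured) of every gene tested in both fits, heart on the x axis and kidney on the y axis, with all 18 libraries on the left and without KFs replicate 3 on the right. Red points (1750 genes) lie below the diagonal, with the response higher in heart in both fits, blue points (2279 genes) above it, and the circles mark 8 genes described in the text.

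The most complete difference concerned the cell cycle. S phase needs licensed replication origins, and division needs the mitotic spindle and its checkpoint. Of 34 tested mitosis genes, 33 had the higher response in kidney, none in heart, and only *Pttg1* was not called. Their median difference was -2.62 (log2, 18 libraries) and -2.79 (17 libraries), composed of a median response of -0.77 in heart and of 1.70 in kidney, or 1.93 without KFs replicate 3. In heart 14 members fell and none rose, whereas in kidney 31 rose and none fell, or 32 without KFs replicate 3. The mean level of the list, as log2(CPM + 1), was 4.27, 3.98 and 4.05 in HFs, 4.93, 4.95 and 4.81 in HFc, 4.78, 5.46 and 4.36 in KFs and 3.45, 3.46 and 3.42 in KFc. Cultured heart fibroblasts were therefore above cultured kidney fibroblasts, with 32 members higher, and the order turned after transplantation, where kidney was higher for 21 members with 18 and for 32 with 17 libraries.

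Among the members, *Bub1*, the spindle checkpoint kinase (chr2:127801122-127831865, minus strand, GRCm38), stood at 6.19, 4.94 and 7.59 CPM in HFs, 15.1, 13.0 and 12.3 CPM in HFc, 15.9, 32.8 and 12.7 CPM in KFs and 3.95, 4.82 and 4.35 CPM in KFc. All HFs were below all HFc and all KFs above all KFc, and the difference in response was -3.34 ± 0.56 (SE, adjusted p = 0.000644) and -3.52 ± 0.53 without KFs replicate 3 (adjusted p = 0.000126). The polo-like kinase *Plk1* was at 16.6, 12.3 and 13.4 CPM in HFs against 26.5, 26.7 and 20.5 CPM in HFc, and at 21.9, 41.1 and 17.2 CPM in KFs against 4.66, 6.21 and 5.65 CPM in KFc. Again neither pair of groups overlapped. The motor proteins *Kif2c* and *Kif4* had differences of -3.08 ± 0.49 and -2.95 ± 0.46 (adjusted p = 0.000421 and 0.000344). *Cep55*, which acts in the final cut between daughter cells, fell in heart from 21.9 ± 1.55 to 7.86 ± 0.203 CPM and rose in kidney from 4.1 ± 0.328 to 16 ± 6.72 CPM (SD, n = 3 each).

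DNA replication genes behaved alike, with 28 of 34 higher in kidney and none in heart, and a median difference of -2.03 and -2.11 in the 18- and 17-library fits. In heart 11 members fell and none rose, and in kidney 21 rose with 18 and 22 with 17 libraries. *Mcm5*, a subunit of the replicative helicase (chr8:75109569-75128439, plus strand), was at 7.7, 5.2 and 10.4 CPM in HFs, 24.4, 23.9 and 24.4 CPM in HFc, 24.3, 37.2 and 18.8 CPM in KFs and 10.6, 9.6 and 7.91 CPM in KFc. HFs overlapped KFc, and HFc overlapped KFs. Its difference in response was -3.16 ± 0.44 (adjusted p = 0.000175) and -3.29 ± 0.42 (adjusted p = 3.45e-05). *Mcm2* of the same helicase differed by -2.84 ± 0.34, and the origin licensing factors *Orc1* and *Cdc6* by -3.47 ± 0.45 and -3.4 ± 0.49 (adjusted p between 5.8e-05 and 0.000207 for the 3 genes). Of 26 genes of homologous recombination, the repair of double-strand breaks from a sister copy, 17 were higher in kidney and 1, *Rad51d*, in heart. *Exo1*, which resects broken ends, differed by -3.11 ± 0.63 (adjusted p = 0.00212). The list of replication-dependent histone genes, added after their values were seen, had 41 of 55 members higher in kidney and 1 in heart. Its members are near-identical copies between which the counting may have split reads, and *Hist1h2an* and *Hist2h2aa1* are given only by their differences of -3.73 and -3.32 with 18 libraries. The gene *BC030867* differed by -3.39 ± 0.68 (adjusted p = 0.00192).

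Promoters were read for the genes the cell cycle and sterol results turn on, and for CCAAT in the complement, lysosomal and Hox lists. The aim was to show how many of each group hold the letters of known motifs. Of the 33 mitosis genes that differed, 26 had an entry in the RefSeq promoter table for GRCm38.p6, and 19 of them (73.1%) held CCAAT, the core letters bound by NF-Y, on either strand within the 250 bases before a listed start, against 37.5% of 27025 genes and 39.9% of the 11833 matched genes tested. The letters TTTGAA of the cell cycle homology region were in 9 of these 26 (34.6%), against 18.3% of all genes and 13.1% of the genes tested. Of 23 matched replication genes, 14 (60.9%) held CCAAT, 2 (8.7%) the E2F letters TTTCCCGC and 3 (13.0%) the E2F letters TTTGGCGC, against 1.0% and 0.5% of all genes and 1.9% and 0.8% of the genes tested for the E2F letters. CCAAT was in 38.1% of all 1335 matched genes with the higher response in heart. It was in 42.2% of the 1730 with the higher response in kidney. By list, CCAAT was in 3 of 5 matched Hox, 4 of 10 lysosomal and 1 of 8 complement genes, all with the higher response in heart. The Hox share was close to that of the replication genes but rests on 5 genes. A high share was thus not seen only in lists higher in kidney. The 250 bases before the start of *Bub1* (chr2:127831860-127832109, minus strand) and of *Mcm5* (chr8:75109259-75109508, plus strand) are given 5′ to 3′ in the direction of transcription, with capitals for CCAAT or its reverse complement ATTGG and, in *Mcm5*, for GCGCCAAA, the reverse complement of TTTGGCGC. A match describes letters, not a bound site.
Bub1: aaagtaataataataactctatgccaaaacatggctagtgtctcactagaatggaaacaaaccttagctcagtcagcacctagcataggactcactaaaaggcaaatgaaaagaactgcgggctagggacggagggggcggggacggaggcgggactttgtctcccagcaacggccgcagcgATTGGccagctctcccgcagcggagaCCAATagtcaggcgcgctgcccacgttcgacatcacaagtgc
Mcm5: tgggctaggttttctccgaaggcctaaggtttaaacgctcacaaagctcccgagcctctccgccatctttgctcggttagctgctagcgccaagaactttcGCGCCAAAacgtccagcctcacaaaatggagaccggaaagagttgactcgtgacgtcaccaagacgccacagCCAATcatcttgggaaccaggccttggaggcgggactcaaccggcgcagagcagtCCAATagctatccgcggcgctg

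Sterol synthesis fell in heart and much less in kidney. Cells make cholesterol from acetyl-CoA by way of mevalonate and squalene, and transcription of the pathway is raised together when membrane sterol is low. Of 26 tested members, 22 had the higher response in kidney and none in heart (2 without KFs replicate 3), and the 4 not called included *Tm7sf2* and the cholesterol exporters *Abca1* and *Abcg1*. In heart 22 members fell and 2 rose, whereas in kidney 9 fell and 1 rose, or 7 and 1 without KFs replicate 3. The median response was -2.14 in heart and -0.62 in kidney, or -0.53 without KFs replicate 3. The mean level of the list was 3.64, 3.74 and 3.35 in HFs, 5.39, 5.45 and 5.46 in HFc, 4.17, 4.51 and 3.92 in KFs and 4.84, 4.85 and 4.8 in KFc, as log2(CPM + 1). HFs were the lowest and HFc the highest of the 4 groups, with no overlap.

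*Fdps*, farnesyl diphosphate synthase (chr3:89093588-89101959, minus strand), fell from 106, 112 and 116 CPM in HFc to 7.82, 6.88 and 4.4 CPM in HFs, and from 55.6, 53.7 and 50.7 CPM in KFc to 19.7, 33.5 and 14.8 CPM in KFs. Both organs fell without overlap, by 4.14 in heart and by 1.23 in kidney on the log2 scale, and the difference was -2.91 ± 0.38 (adjusted p = 0.000124) and -3.09 ± 0.33 (adjusted p = 8.92e-06). *Cyp51*, which acts late in the pathway, differed by -2.48 ± 0.44 (adjusted p = 0.000851). *Idi1*, isopentenyl diphosphate isomerase, was at 8.48, 9.61 and 5.16 CPM in HFs, 81.5, 78.3 and 89.0 CPM in HFc, 19.3, 28 and 6.49 CPM in KFs and 36.4, 36.0 and 32.3 CPM in KFc. KFs replicate 3 was the lowest KFs library for it and lay within the range of HFs.

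Of the 22 sterol genes that differed, 15 had a promoter entry. All 15 held CCAAT before a listed start, against 37.5% of all genes and 39.9% of the genes tested. Of the 15, 1 (6.7%) held CACCCCAC, the sterol regulatory element letters, against 3.0% of all genes and 3.4% of the genes tested. The windows of *Idi1* (chr13:8885356-8885605, plus strand) and *Hmgcs1* (chr13:119690101-119690350, plus strand) are given with capitals for CCAAT or ATTGG and, in *Hmgcs1*, for CACCCCAC. *Hmgcs1*, HMG-CoA synthase, was chosen after its values were seen because it holds these letters. It was at 46.3, 61.7 and 35.4 CPM in HFs, 127, 121 and 130 CPM in HFc, 78.5, 112 and 50.9 CPM in KFs and 76.3, 76.4 and 77.7 CPM in KFc, a difference of -1.47 (adjusted p = 0.00484) and -1.65 without KFs replicate 3 (adjusted p = 0.000252). Its fall was seen in heart, while KFs lay on both sides of KFc.
Idi1: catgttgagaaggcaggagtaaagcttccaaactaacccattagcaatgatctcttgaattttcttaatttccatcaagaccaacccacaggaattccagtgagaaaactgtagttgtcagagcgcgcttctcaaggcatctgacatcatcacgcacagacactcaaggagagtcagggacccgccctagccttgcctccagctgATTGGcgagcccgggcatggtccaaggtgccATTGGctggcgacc
Hmgcs1: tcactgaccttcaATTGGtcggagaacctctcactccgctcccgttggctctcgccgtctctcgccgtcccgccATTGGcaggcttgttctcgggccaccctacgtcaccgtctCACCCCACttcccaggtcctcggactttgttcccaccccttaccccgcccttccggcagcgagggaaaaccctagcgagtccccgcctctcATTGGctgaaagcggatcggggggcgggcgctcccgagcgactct

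Of 31 glycolysis and hypoxia genes, 13 rose and 1 fell in heart, and in kidney 20 rose with 18 and 21 with 17 libraries, with none falling. The response was higher in kidney for 12 members and in heart for none. It was higher in kidney for 16 without KFs replicate 3 and for 7 without HFs replicate 1 or without HFs replicate 2. *Tpi1*, triose phosphate isomerase, was at 110, 129 and 135 CPM in HFs, 84.3, 81.1 and 82.5 CPM in HFc, 206, 283 and 153 CPM in KFs and 59.4, 58.0 and 57.4 CPM in KFc, and differed by -1.28 ± 0.25 (adjusted p = 0.00172). The 4 groups did not overlap for it. *Pfkfb3*, which makes the activator of phosphofructokinase, rose in both organs and differed by -1.33 ± 0.27, and *Egln1*, the oxygen-sensing prolyl hydroxylase, by -1.5 ± 0.38 (adjusted p = 0.00222 and 0.00932). Of 33 genes of the unfolded protein and ATF4 response, 16 were higher in kidney and 3 in heart, with median responses of -0.82 in heart and -0.41 in kidney. *Manf*, a secreted chaperone of the endoplasmic reticulum, was at 63.1, 49.1 and 51.4 CPM in HFs against 137, 141 and 135 CPM in HFc, while KFs at 110, 143 and 68.7 CPM spanned KFc at 103, 105 and 100 CPM. The amino acid transporter *Slc7a5* differed by -1.5 ± 0.28 (adjusted p = 0.00109). *Cth* of cysteine synthesis and the lipoprotein receptor *Vldlr* instead had the higher response in heart, by 3.31 ± 0.65 and 2.23 ± 0.58 (adjusted p = 0.00171 and 0.0108). Of 54 nuclear genes of the respiratory chain, 8 (among them *Atp5b*, by -0.88 ± 0.18, adjusted p = 0.00261) were higher in kidney and none in heart, a share close to the 13.7% of all genes, or 17 without KFs replicate 3, where the share of all genes was 17.2%. This count was between 1 and 4 without any 1 heart or kidney library other than KFs replicates 1 and 3, 3 with DESeq2 size factors and 18 with library size alone.

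**Figure D2:**
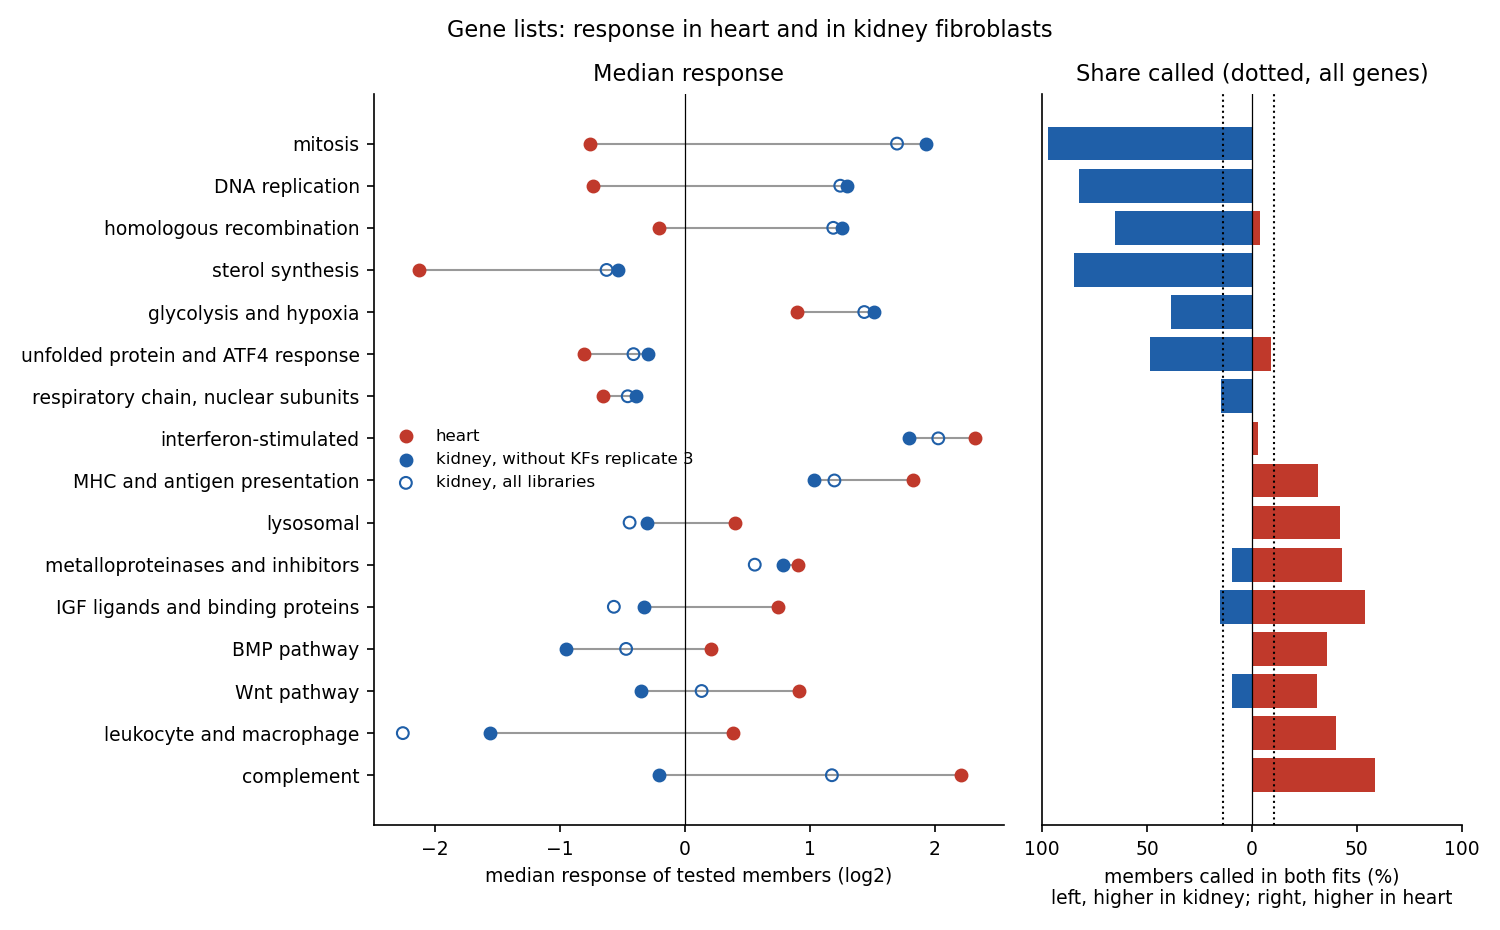
Left, median response (log2) of the tested members of 16 gene lists in heart (red) and in kidney without KFs replicate 3 (filled blue) or with all libraries (open blue). Right, share of members that differed in both fits, to the left when higher in kidney and to the right when higher in heart, with dotted lines at the shares of all genes (13.7% and 10.6%). Mitosis, DNA replication and sterol synthesis lie furthest to the left and complement furthest to the right.

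Protein-coding genes with a mean of at least 1 CPM in every group were ranked by the smaller of their differences in the 2 fits. Genes outside these lists were among the 10 ranked highest towards kidney. The neuronal beta tubulin *Tubb3* (chr8:123411424-123422015, plus strand) was at 525, 558 and 556 CPM in HFc and 43.7, 26.2 and 28.3 CPM in HFs, against 64.9, 64.5 and 60.5 CPM in KFc and 29.0, 50.6 and 42.4 CPM in KFs. Its difference, -3.43 ± 0.29 (adjusted p = 4.53e-06) and -3.34 ± 0.28 (adjusted p = 1.15e-06), came with a high level in HFc alone, and HFs and KFs overlapped. *Ezr*, ezrin, which links actin to the membrane, fell in heart from 305, 309 and 305 CPM to 10.5, 31.7 and 16.7 CPM. In kidney it stood at 49.5, 38.6 and 48.4 CPM in KFc and 39.3, 41.0 and 153 CPM in KFs, the last of these in KFs replicate 3, and the difference moved from -4.73 ± 0.63 to -3.71 ± 0.36 without that library. *Asb5* differed by -3.43 ± 0.48 (adjusted p = 0.000178), from 43.4 ± 3.56 CPM in HFc to 7.74 ± 1.38 CPM in HFs (SD, n = 3), and was at 3.43 CPM or less in the kidney groups.

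The same ranking, with its limit on low levels, gave 10 genes towards heart, which left out larger differences of genes under 1 CPM in some group. *Cxcl14*, a chemokine (chr13:56288643-56296551, minus strand), rose from 0.984, 1.29 and 1.33 CPM in HFc to 5.23, 8.07 and 5.43 CPM in HFs and fell from 19.2, 18.4 and 19.2 CPM in KFc to 0.97, 2.69 and 1.8 CPM in KFs. Neither pair overlapped, and the difference was 5.74 ± 0.36 (adjusted p = 3.98e-07) and 5.77 ± 0.37 (adjusted p = 1.24e-07). *Igfbp5*, an insulin-like growth factor binding protein (chr1:72857932-72874884, minus strand), was at 229, 839 and 695 CPM in HFs, 52.8, 36.1 and 96.0 CPM in HFc, 13.9, 7.44 and 21.9 CPM in KFs and 73.3, 62.8 and 56.1 CPM in KFc. It rose in heart and fell in kidney without overlap, and differed by 5.41 ± 0.67 (adjusted p = 6.78e-05). *Mylk*, myosin light chain kinase (chr16:34745210-35002420, plus strand), rose in heart from 10.8, 10.8 and 13.0 to 112, 120 and 97.6 CPM and fell in kidney from 220, 232 and 229 to 104, 31.7 and 129 CPM. The difference was 4.63 ± 0.46 (adjusted p = 1.22e-05), and the 2 organs overlapped after transplantation but not in culture.

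*Prg4*, lubricin (chr1:150449412-150466165, minus strand), was low in both cultures, at 4.74, 4.74 and 4.27 CPM in HFc and 3.8, 3.18 and 3.59 CPM in KFc. It reached 2110, 1650 and 1040 CPM in HFs, against 45.0, 82.4 and 4.37 CPM in KFs, and differed by 4.8 ± 0.89 (adjusted p = 0.00117) and 4.32 ± 0.41 (adjusted p = 2.85e-06). It thus rose in both organs and much further in heart, with KFs replicate 3 near the cultured level. *Cpxm1* rose in heart from 3.28, 1.79 and 4.67 to 274, 338 and 194 CPM, against 62.5, 54.2 and 54.1 CPM in KFc and 262, 154 and 34.4 CPM in KFs. The adhesion receptor *Adgrd1* differed by 4.84 ± 0.58, the formin-like Wnt effector *Daam2* by 4.76 ± 0.57 and *Ackr3*, the scavenging receptor of CXCL12, by 4.62 ± 0.45 (adjusted p between 1.11e-05 and 5.8e-05). All 3 were at 7.03 CPM or less in HFc and at 22.3 CPM or more in KFc. *Hspb7*, a small heat shock protein of muscle, differed in the same direction by way of kidney. It stood at 16.9 ± 11.2 CPM in HFs against 15.0 ± 1.63 CPM in HFc, with a fall in kidney from 67.9 ± 2.5 to 3.03 ± 2.7 CPM (SD, n = 3). *Lrp2*, the endocytic receptor megalin of the proximal tubule, also met the rule, by 4.77 ± 1.01 (adjusted p = 0.00283), but HFs replicate 2 stood at 324 CPM against 42.4 and 26.7 CPM in the other HFs.

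**Figure D3:**
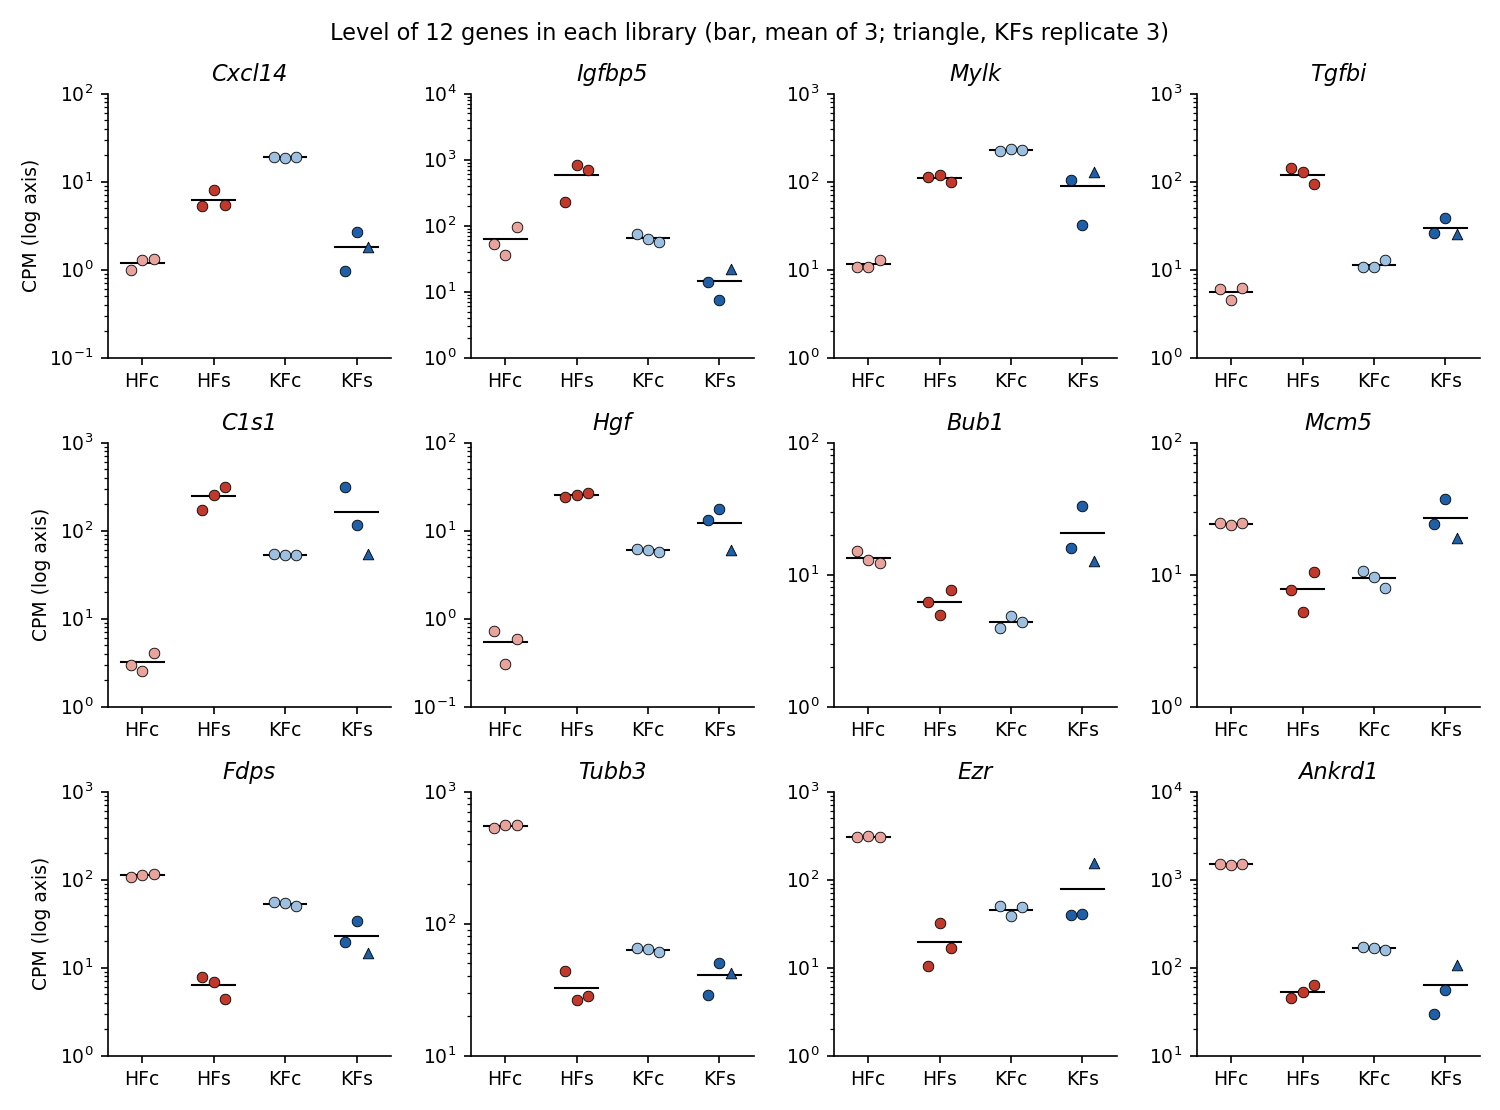
Level of 12 genes in each library in CPM on a log axis, with the groups HFc, HFs, KFc and KFs along the x axis, bars at the mean of 3 libraries and a triangle for KFs replicate 3. *Bub1* and *Mcm5* fall in heart and rise in kidney, *Cxcl14* and *Igfbp5* do the reverse, and *Tubb3*, *Ezr* and *Ankrd1* are highest in HFc.

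Complement was the list with the largest share of members higher in heart in both fits, although without KFs replicate 3 leukocyte and macrophage markers (14 of 20), IGF ligands and binding proteins (8 of 13) and epithelial adhesion and keratin genes (12 of 20) were above it (10 of 17). Complement proteins form a cascade that tags cells and debris, started by the C1 complex and passing through C3. Of 17 members, 10 had the higher response in heart and none in kidney, and the median difference was 2.27 with 18 and 2.46 with 17 libraries. *C1s1*, a protease of the C1 complex (chr6:124530345-124542359, minus strand), was at 170, 251 and 312 CPM in HFs, 2.99, 2.54 and 4.08 CPM in HFc, 314, 115 and 54.6 CPM in KFs and 54.1, 52.1 and 52.1 CPM in KFc. It rose in heart without overlap from a far lower cultured level, and differed by 4.66 ± 0.63 (adjusted p = 0.00014). *C2* differed by 3.11 ± 0.83 (adjusted p = 0.0125). The other members included *C1qa*, *C1qb*, *C1qc*, *C3ar1* and *C5ar1*, which macrophages express. *C1qc* was at 40.1, 36.5 and 35.4 CPM in KFc and 3.56, 2.47 and 0.281 CPM in KFs, against 8.53, 7.38 and 8.8 CPM in HFc and 4.81, 3.75 and 4.25 CPM in HFs. Its difference of 3.2 ± 0.64 (adjusted p = 0.00195) therefore moved with a fall in kidney from the highest group.

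That fall was shared by leukocyte and macrophage markers. Of 20, 8 had the higher response in heart and none in kidney, or 14 without KFs replicate 3. In kidney 12 fell and none rose with 18 libraries, and 12 fell and 2 rose without KFs replicate 3, whereas in heart 1 rose and none fell. *Csf1r*, the receptor that maintains macrophages, was at 77.2, 81.2 and 72.4 CPM in KFc and 13.9, 10.9 and 6.57 CPM in KFs, against 12.5, 15.1 and 16.6 CPM in HFc and 14.8, 19.4 and 18.6 CPM in HFs. *Adgre1*, the F4/80 antigen, was at 21, 23.2 and 21.5 CPM in KFc and 4.08, 1.76 and 0 CPM in KFs, and at 3.59 to 7.71 CPM in the heart groups. KFc thus stood above the other 3 groups for both. The CD45- sort after transplantation applied to HFs and KFs alone, and its part in these differences was not tested. Of 31 lysosomal genes 13 were higher in heart and none in kidney, with median responses of 0.37 in heart and -0.44 in kidney. *Cd68* and *Ctss*, which macrophages also express, differed by 2.68 ± 0.59 and 2.71 ± 0.79 (adjusted p = 0.00347 and 0.0198), the latter at 2.44 without HFs replicate 3 (adjusted p = 0.0509). *Npc2*, which carries cholesterol out of lysosomes, was at 141, 162 and 133 CPM in HFs, 84.3, 88.5 and 93.0 CPM in HFc, 124, 102 and 74.6 CPM in KFs and 194, 190 and 201 CPM in KFc. HFs lay above HFc and KFs below KFc without overlap, a difference of 1.68 ± 0.19 (adjusted p = 3.07e-05).

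Interferon-stimulated genes rose in heart for 24 and in kidney for 23 of 32 members, and 1 member, *Gbp2*, differed, by 1.65 ± 0.43 (adjusted p = 0.0106). Without KFs replicate 1, 4 members were higher in heart, without KFs replicate 3, 3 were, and without KFs replicate 2, 1 was higher in heart and 2 in kidney. *Gbp2* was at 51.8, 51.1 and 80.2 CPM in HFs, 7.83, 6.3 and 6.29 CPM in HFc, 54.9, 17.8 and 35.3 CPM in KFs and 13.4, 11.3 and 13.0 CPM in KFc. The mean level of this list was 4.39, 2.31 and 3.87 in KFs as log2(CPM + 1), so that KFs replicate 2 lay in the range of KFc (2.21 to 2.32), against 4.19 to 4.38 in HFs. Of 19 genes of MHC class I and antigen presentation 6 were higher in heart, against 10.6% of all genes, and none in kidney. *H2-D1* rose in heart from 96.6, 91.0 and 97.0 to 284, 357 and 350 CPM, whereas KFs at 98.0, 47.6 and 94.6 CPM overlapped KFc at 66.0, 59.8 and 62.1 CPM, a difference of 1.45 ± 0.29 (adjusted p = 0.00206). *H2-K1* and *Psmb8* differed by 1.16 ± 0.28 and 1.36 ± 0.35 (adjusted p = 0.00624 and 0.00899).

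Set beside 10.6% and 13.7% of all genes, 3 of 22 chemokine genes were higher in heart (6 without KFs replicate 1) and 1 in kidney. The latter, *Cxcl5*, a neutrophil attractant, rose in both organs, from 7.98, 5.75 and 6.19 to 143, 126 and 185 CPM in heart and from 0.634, 0.0698 and 0.366 to 88.2, 141 and 26.5 CPM in kidney. It differed by -3.4 ± 0.78 (adjusted p = 0.00495), and its cultured level was lower in kidney. *Cxcl16* was higher in heart, by 1.07 ± 0.19 (adjusted p = 0.000852). Of 27 genes of NF-kB feedback, cytokines and the acute phase, 4 were higher in heart and 2 in kidney. Neither list exceeded those shares of all genes by much. The acute phase haemoglobin carrier *Hp* was at 184, 232 and 618 CPM in HFs and 99.2, 55.0 and 9.5 CPM in KFs, from 0.291 to 2.13 CPM in the cultures. Its difference was 4.43 ± 1.25 (adjusted p = 0.0166), and 3.96 without KFc replicate 3, where it was not called (adjusted p = 0.0611). *Lif*, a cytokine of the interleukin-6 family, fell in heart from 50.1, 50.2 and 50.0 to 22, 17.1 and 14.4 CPM and stood at 23.5, 35.6 and 36.8 CPM in KFs against 20.2, 17.9 and 17.5 CPM in KFc, a difference of -2.28 ± 0.41 (adjusted p = 0.000909). *Ptgs2*, the inducible prostaglandin synthase, had the higher response in heart, by 2.24 ± 0.62 (adjusted p = 0.0146), but the lower level. It rose in heart from 17.3, 18.1 and 15.3 to 76.8, 50.9 and 37.9 CPM. In kidney it was at 329, 347 and 316 CPM in KFc and 216, 347 and 123 CPM in KFs.

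Of 21 fibrillar and network collagens 3 were higher in heart and 2 in kidney, shares close to the 10.6% and 13.7% of all genes, although 15 rose in heart and 14 in kidney. The counts were 5 and 6 without KFs replicate 3, 6 and 1 without KFs replicate 1, 3 and 0 without HFs replicate 2 and 1 and 0 with the proximal tubule level as a covariate. *Col24a1* was at 65.0, 54.0 and 26.8 CPM in HFs against 0.109, 0.271 and 0.197 CPM in HFc, and at 135, 117 and 20.0 CPM in KFs against 18.8, 20.1 and 20.2 CPM in KFc, a difference of 5.73 ± 0.91 (adjusted p = 0.000435). *Col6a3* differed in the same direction by 1.88 ± 0.52, but *Col6a2*, which encodes another chain of collagen VI, in the opposite direction by -2.05 ± 0.7 (adjusted p = 0.0153 and 0.0405). *Col6a2* was already at 618, 621 and 712 CPM in HFc against 61.0, 52.7 and 58.5 CPM in KFc and reached 1350, 1380 and 1610 CPM in HFs and 1120, 369 and 102 CPM in KFs. *Col5a3* was higher in kidney, at -1.15 ± 0.38 (adjusted p = 0.0359). With 18 libraries as the start, *Col6a2* was no longer called without any 1 heart or kidney library other than KFs replicates 2 and 3, and was at -0.89 (adjusted p = 0.141) without KFs replicate 1, and *Col5a3* was at -0.7 (adjusted p = 0.133) without KFs replicate 2 and lost its call with most other libraries left out as well. Of 21 crosslinking and modification genes 3 were higher in heart and 4 in kidney, counts also near those shares, or 4 and 8 without KFs replicate 3, the kidney genes including the lysyl hydroxylase *Plod2* at -1.53 ± 0.32 and the prolyl hydroxylase *P4ha1* at -1.35 ± 0.27 (adjusted p = 0.00278 and 0.00227), whereas *P4ha3* was higher in heart by 2.02 ± 0.46 (adjusted p = 0.00423).

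Of 21 basement membrane genes 5 were higher in heart and 2 in kidney, or 10 and 5 without KFs replicate 3. *Nid2*, a linker of laminin and collagen IV, was at 129, 134 and 138 CPM in HFc and 202, 284 and 332 CPM in HFs and fell in kidney from 178, 181 and 171 to 102, 57.6 and 11.2 CPM, a difference of 2.67 ± 0.64 (adjusted p = 0.00638). Of 29 matricellular genes and small proteoglycans 5 were higher in heart and 2 in kidney, or 7 and 4 without KFs replicate 3 and 11 and 3 without KFs replicate 1, and 3 in heart without any 1 library of HFc or KFc. With the proximal tubule level as a covariate the counts were 2 and 1. *Prelp*, a small proteoglycan, fell in both organs, from 1700, 1790 and 1790 to 409, 439 and 536 CPM in heart and from 455, 442 and 427 to 20.9, 3.62 and 3.05 CPM in kidney, and differed by 3.66 ± 0.66 (adjusted p = 0.000991). *Ccn5* did the same by 2.83 ± 0.45 (adjusted p = 0.000421). Tenascin C, *Tnc*, was higher in kidney, at -1.81 ± 0.51 (adjusted p = 0.0153), at 1450, 3600 and 3260 CPM in KFs against 865, 897 and 866 CPM in KFc, while HFs at 1550, 823 and 448 CPM overlapped HFc at 1070, 1060 and 1000 CPM. Of 21 metalloproteinases and inhibitors 9 were higher in heart and 2 in kidney, or 3 and 2 with the proximal tubule level as a covariate. *Mmp9* rose from 0, 0 and 0.295 CPM in HFc to 53.8, 34.3 and 36.0 CPM in HFs, against 5.18, 2.51 and 2.99 CPM in KFc and 27.0, 54.0 and 22.8 CPM in KFs. *Mmp11* and *Mmp12* differed by 1.87 ± 0.28 and 1.58 ± 0.15 (adjusted p = 0.000258 and 9.62e-06).

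Myofibroblast contractile genes fell in both organs. In heart 13 of 21 fell and 3 rose, and in kidney 16 fell and none rose, or 17 without KFs replicate 3, with median responses of -1.34 and -1.41. In both fits 4 members were higher in heart and 1 in kidney, against 10.6% and 13.7% of all genes. The 4 were *Mylk*, *Itga11*, *Des* and *Synpo2*. Without KFs replicate 3 the counts were 6 and 3, and the kidney count was 0 to 3 when 1 heart or kidney library was left out. *Itga11*, a collagen-binding integrin, rose in heart from 37.9, 46.7 and 37.6 to 176, 173 and 138 CPM and fell in kidney from 439, 471 and 432 to 148, 57.1 and 19.6 CPM, a difference of 4.57 ± 0.64 (adjusted p = 0.000173). Of 22 genes of the TGF-beta pathway 8 were higher in heart and 3 in kidney, or 10 and 5 without KFs replicate 3, with 1 or 2 in kidney without any 1 of the other heart and kidney libraries and 1 with the proximal tubule level as a covariate. The latent TGF-beta binding protein *Ltbp2* was at 882, 709 and 302 CPM in HFs against 41.9, 45.3 and 37.3 CPM in HFc, and KFs at 768, 1100 and 557 CPM stayed below KFc at 1180, 1170 and 1120 CPM. *Tgfbi*, a matrix protein induced by TGF-beta (chr13:56609523-56639562, plus strand), rose in both organs, from 5.97, 4.54 and 6.19 to 141, 127 and 92.6 CPM in heart and from 10.7, 10.6 and 12.9 to 26, 38.6 and 25.6 CPM in kidney, and differed by 3.04 ± 0.26 (adjusted p = 4.95e-06). Of 20 YAP and TEAD targets, which report on stretch and adhesion, 6 were higher in heart and 2 in kidney, or 5 and 5 without KFs replicate 1 and 2 and 2 with the proximal tubule level as a covariate, and in heart 8 fell and 1 rose against 12 and 1 in kidney. *Ankrd1* fell from 1520, 1470 and 1490 to 44.6, 52.3 and 62.8 CPM in heart and from 172, 166 and 160 to 29.5, 55.2 and 106 CPM in kidney, and was higher in kidney, at -3.42 ± 0.57 (adjusted p = 0.000622).

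Several signalling lists had more members higher in heart than in kidney. BMP pathway genes were higher in heart for 9 of 25 members and in kidney for none, among them the BMP antagonist *Grem1*. It was at 214, 210 and 223 CPM in KFc and 37.0, 34.2 and 7.58 CPM in KFs, and at 1.59 CPM or less in every heart library, so that its difference of 4.24 ± 0.82 (adjusted p = 0.00156) came with a fall in kidney. Of 32 Wnt pathway genes 10 were higher in heart and 3 in kidney, or 7 and 1 with the proximal tubule level as a covariate, and the kidney count was between 1 and 4 when 1 heart or kidney library was left out (1 without HFs replicates 2 or 3, HFc replicate 3, KFs replicate 1 or KFc replicates 1 or 2). The Wnt agonist *Rspo2* fell in kidney from 19.7, 18.5 and 16.7 to 2.67, 0.705 and 0.361 CPM, with 0.406 to 1.21 CPM in heart, a difference of 4.53 ± 0.71 (adjusted p = 0.000362). The secreted Wnt inhibitor *Sfrp2* was higher in kidney, at -3.84 ± 1.25 (adjusted p = 0.0335), from 0.112, 0.14 and 0.532 CPM in KFc to 38.7, 6.89 and 2.24 CPM in KFs, although HFs at 82.5, 58.7 and 81.8 CPM were above every KFs library. Without KFs replicate 1 its difference was -2.08 (adjusted p = 0.0824), and 6 other single libraries also decided its call. Of 13 IGF ligands, binding proteins and receptors 7 were higher in heart and 2 in kidney. The 7 became 3 with the proximal tubule level as a covariate and 4 without any 1 of the HFc libraries, KFs replicate 2 or KFc replicates 1 and 2. *Igf1* rose in heart from 85.1, 93.4 and 88.8 to 193, 242 and 251 CPM, and KFs at 80.2, 15.5 and 10.8 CPM spanned KFc at 54.4, 52.3 and 53.9 CPM, a difference of 1.96 ± 0.68 (adjusted p = 0.0459), which was not called without any 1 heart or kidney library other than KFs replicates 1 and 3 (1.65, adjusted p = 0.0868, without KFs replicate 2). *Irs1*, an adaptor of the insulin and IGF receptors, was higher in kidney, at -1.73 ± 0.3 (adjusted p = 0.000714).

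Of 31 growth factors and receptors 7 were higher in heart and 2 in kidney, or 11 and 2 without KFs replicate 3. Hepatocyte growth factor, *Hgf* (chr5:16553495-16620152, plus strand), was at 23.9, 25.6 and 26.4 CPM in HFs, 0.729, 0.305 and 0.59 CPM in HFc, 13.3, 17.6 and 6.09 CPM in KFs and 6.12, 6.04 and 5.68 CPM in KFc, and differed by 4.49 ± 0.45 (adjusted p = 1.18e-05). HFs were above every HFc, KFs and KFc library although HFc were the lowest of the 4 groups. *Vegfd*, a lymphatic growth factor, was at 154, 155 and 160 CPM in HFc and 221, 273 and 303 CPM in HFs and fell in kidney from 263, 264 and 252 to 82.8, 26.2 and 5.69 CPM, a difference of 3.53 ± 0.76 (adjusted p = 0.00314). Axon guidance genes, which also steer cell migration, were higher in heart for 10 and in kidney for 5 of 45, or 22 and 6 without KFs replicate 3. *Slit3* was at 177, 222 and 318 CPM in HFs against 30.9, 35.5 and 41.3 CPM in HFc and at 628, 443 and 153 CPM in KFs against 630, 634 and 634 CPM in KFc, a difference of 3.37 ± 0.48 (adjusted p = 0.000197). *Sema3a*, a repellent, was higher in kidney, at -2.68 ± 0.3 (adjusted p = 3.18e-05).

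Positional and developmental genes moved within a large standing gap. Hox genes record position along the body axis, and 28 of 34 were higher in KFc than in HFc and 26 in KFs than in HFs in both fits. The mean level of the list was 0.43, 0.653 and 0.458 in HFs and 0.29 to 0.383 in HFc, against 2.57, 2.61 and 2.86 in KFs and 2.76 to 2.78 in KFc, as log2(CPM + 1). Even so 11 members had the higher response in heart and none in kidney, or 8 and 1 without HFs replicate 2 and 7 and 0 with the proximal tubule level as a covariate. The median difference was 0.93 with 18 libraries, 1.46 without KFs replicate 3 and 0.50 without HFs replicate 2. For 15 members some group lay at the floor, and with floored values the median was 0.67, or 1.03 without KFs replicate 3. A member with heart at the floor was tested through its level in other organs, so its call rests on few heart counts. The count of calls and the medians are therefore no measure of a heart response. *Hoxa7* was at 0.902, 3.88 and 0.873 CPM in HFs, 0.109, 0.102 and 0.246 CPM in HFc, 21.5, 20.5 and 30.1 CPM in KFs and 29.9, 27.3 and 26.9 CPM in KFc. *Hoxa9* was at 0.541, 1.45 and 0.19 CPM in HFs and 0 in every HFc library, against 13.3 to 23.5 CPM in the kidney groups, and *Hoxc8* at 0.18, 0.529 and 0 CPM in HFs and 0 in HFc against 22 to 77.0 CPM. *Hoxc10* was at 0.705 CPM or less in heart and at 15.1 to 51.6 CPM in kidney. The highest HFs value of all 4 genes was in replicate 2, the library with the highest proximal tubule markers, whose part was not tested, and all lay far below kidney. Without that library *Hoxc8* kept its direction and was no longer called (adjusted p = 0.162). Of 16 cardiogenic factors 2 were higher in heart and 1 in kidney, counts close to or under the 10.6% and 13.7% of all genes. They were 5 and 1 without KFs replicate 1 and 2 and 3 without KFs replicate 3. The kidney gene was *Hand2*, a factor of heart development. It was at 40.1, 37.3 and 41.7 CPM in HFs, all below HFc at 56.4, 59.4 and 63.8 CPM, and at 0.849 CPM or less in kidney. There it rose from 2, 7 and 8 counts in KFc to 21, 18 and 13 counts in KFs. Its difference of -2.27 ± 0.47 (adjusted p = 0.00261) thus rests in part on low kidney counts, which limits the precision of its size. Of 23 renal developmental factors 4 were higher in heart and 1 in kidney, or 10 and 1 without KFs replicate 3 and 2 and 1 with the proximal tubule level as a covariate.

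Stress and lipid lists were mixed. Of 26 AP-1 and immediate early genes 7 were higher in heart and 3 in kidney, or 11 and 4 without KFs replicate 1, the heart genes including the orphan nuclear receptors *Nr4a1*, *Nr4a2* and *Nr4a3*. *Nr4a1* was at 60.8, 50.7 and 54.0 CPM in HFs, 3.42, 3.55 and 2.01 CPM in HFc, 113, 66.3 and 29.2 CPM in KFs and 89.6, 78.5 and 75.4 CPM in KFc, a difference of 4.41 ± 0.53 (adjusted p = 5.8e-05). It rose in heart from a cultured level far below that of kidney. Of 24 Nrf2 and aryl hydrocarbon receptor targets 6 were higher in heart and 3 in kidney. The glutathione transferase *Gsta4* was at 79.9, 68.7 and 71.3 CPM in KFc and 2.51, 1.54 and 2.81 CPM in KFs, with 0.44 to 1.02 CPM in heart, and differed by 5.48 ± 0.36 (adjusted p = 3.98e-07). *Nqo1* and *Hmox1* likewise fell in kidney from the highest of the 4 groups and differed by 2.47 ± 0.29 and 1.47 ± 0.2 (adjusted p = 5.77e-05 and 0.000127). Of 24 p53 targets and senescence genes 8 were higher in heart and 2 in kidney, led by the cell cycle inhibitor *Cdkn2b*, which fell in kidney from 135, 125 and 130 to 33.7, 16.1 and 33.3 CPM and stood at 24.1 to 40.9 CPM in heart. Of 22 adipogenic and lipid storage genes 6 were higher in heart and 4 in kidney. *Cebpa* rose in heart from 0.911, 0.542 and 0.491 to 4.39, 5.47 and 5.66 CPM and fell in kidney from 10.9, 10.7 and 9.67 to 3.76, 3.21 and 3.17 CPM, whereas the fatty acid synthase *Fasn* was higher in kidney, at -1.43 ± 0.2 (adjusted p = 0.000197).

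Fibroblast identity genes were higher in heart for 6 and in kidney for 2 of 23. *Gsn*, gelsolin, was at 487, 483 and 726 CPM in HFs against 417, 407 and 442 CPM in HFc and fell in kidney from 1080, 1060 and 1020 to 435, 342 and 150 CPM, a difference of 2.19 ± 0.41 (adjusted p = 0.00117). *Thy1*, a surface antigen of fibroblasts, was higher in kidney, at -1.58 ± 0.38 (adjusted p = 0.00618). Mesothelial markers, for the lining of the organ surface, had 3 of 8 members higher in kidney and none in heart. *Lrrn4* was at 42.7, 36.5 and 39.9 CPM in HFc and 0.18, 0.661 and 1.86 CPM in HFs, and at 0.577 CPM or less in the kidney groups. Its call was lost without KFs replicate 2, with a difference of -3.68 (adjusted p = 0.124). The summed mesothelial markers were 208 to 216 CPM in HFc, 19.3 to 32.5 CPM in HFs, 84.6 to 137 CPM in KFs and 55.5 to 61.5 CPM in KFc. Cardiomyocyte markers were mixed. Of 5 tested, 1 was higher in heart and none in kidney in both fits. In heart 2 rose and 2 fell, or 3 and 2 without KFs replicate 3. *Ryr2* was at 17, 13 and 17 counts in HFs and 2, 0 and 0 in HFc, against 7, 13 and 36 in KFs and 17, 24 and 23 in KFc. *Tnnt2*, named after its values were seen, went the other way in heart, at 92.2 to 107 CPM in HFc and 1.32 to 4.44 CPM in HFs. Its difference was -3.54 with 18 libraries and 0.05 with 17. The defining cardiomyocyte gene *Myh6* did not exceed 0.722 CPM anywhere.

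Many markers of kidney tubule cells rose after transplantation. Of 24 proximal tubule genes 3 differed, all higher in heart, a share close to the 10.6% of all genes. That count was 5 without HFs replicate 3 and 1 with the list's own level as a covariate. In heart 23 of the 24 rose and in kidney 17. Host and donor sources of this RNA cannot be told apart in bulk counts, and the summed markers were already at 247 to 271 CPM in HFc and 328 to 349 CPM in KFc, where all KFs were lower, at 261 to 323 CPM. The kidney androgen-regulated protein *Kap*, named after its values were seen, was at 20.9, 296 and 5.62 CPM in HFs and 16.7, 4.29 and 1.2 CPM in KFs and at 0 in every cultured library. *Slc4a4*, a bicarbonate transporter, differed by 2.02 ± 0.55 and the water channel *Aqp1* by 1.87 ± 0.49 (adjusted p = 0.0129 and 0.0106), with HFs replicate 2 the highest of the heart and kidney libraries for both. Of 17 genes of the loop, distal tubule and collecting duct 12 rose in heart and 7 in kidney and none fell, while their summed level was 566 to 630 CPM in HFs against 946 to 973 CPM in HFc and 559 to 645 CPM in KFs against 869 to 906 CPM in KFc. Of these genes 1, *Hsd11b2*, was higher in heart, and was not called without KFc replicate 3 (adjusted p = 0.0648). Its counts were 2, 82 and 147 in HFs and 0 in every HFc library, against 10, 8 and 21 in KFs and 1, 6 and 12 in KFc. Epithelial adhesion and keratin genes were higher in heart for 2 and in kidney for 1 of 20 with KFs replicate 3, and for 12 and 1 without it. The shares of all genes were 10.7% and 15.5% with that library and 18% and 17.2% without it. *Cdh16* was at 1.14, 16.7 and 9.34 CPM in HFs and 0 in HFc, against 7.56, 4.52 and 58.8 CPM in KFs and 18.2, 16.8 and 17.1 CPM in KFc. The summed markers of this list were 74.1 to 88.4 CPM in KFc and 12.9 to 17.1 CPM in HFc. Of 15 endothelial markers 4 were higher in heart and 2 in kidney. *Tek* rose in heart from 12, 13.0 and 14.0 to 28.8, 35.2 and 22.3 CPM, and *Ptprb* fell from 395, 386 and 366 to 54.1, 43.0 and 35.4 CPM. Haemoglobin transcripts, from red cells, were at 17.8 CPM or less for *Hba-a2* and *Hbb-bs*, 0 in every cultured library, and neither differed. The part of these other cell types in the differences between organs was not tested.

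**Figure D4:**
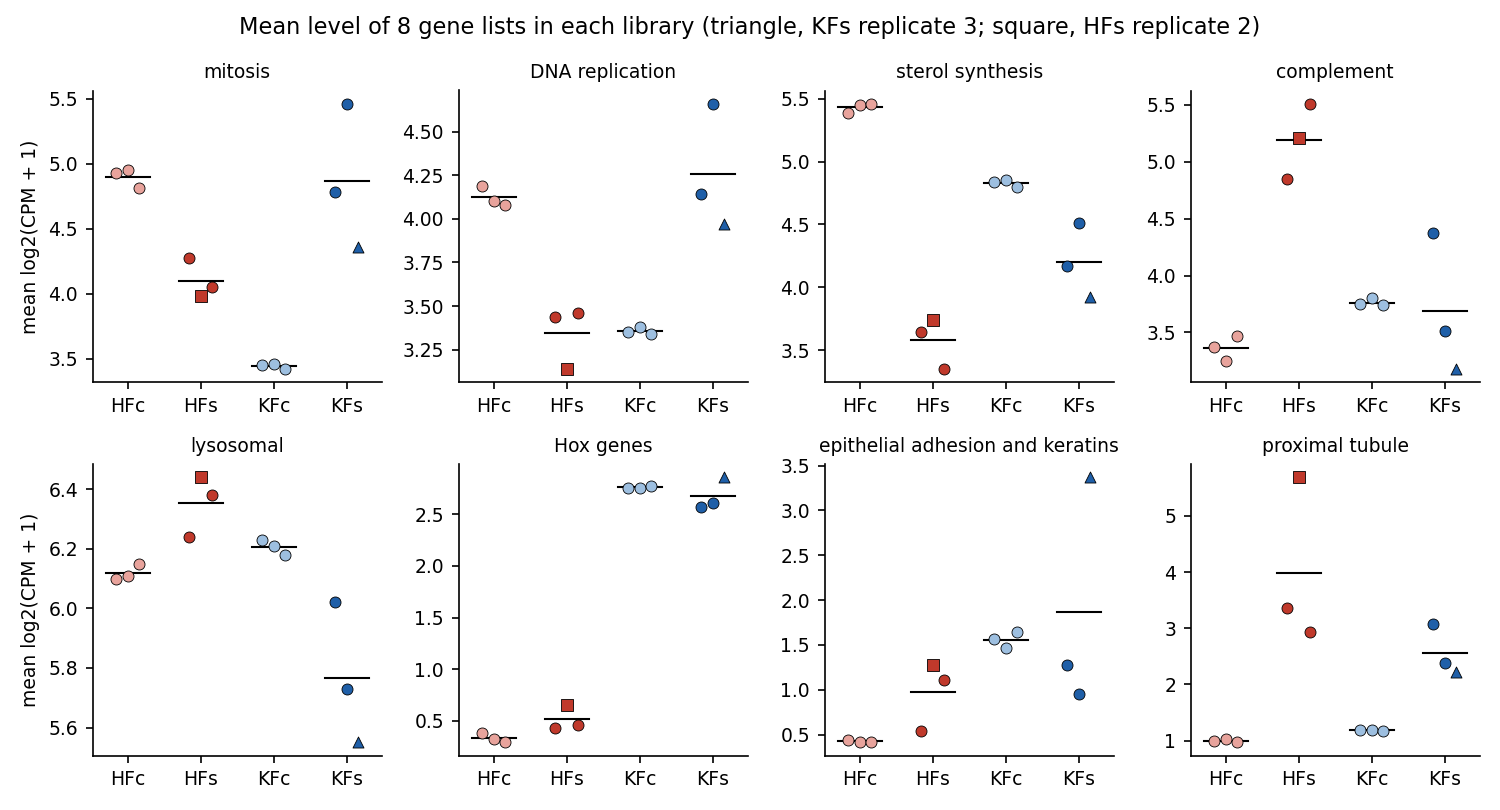
Mean level of 8 gene lists in each library, as log2(CPM + 1), with the groups along the x axis, bars at the mean of 3 libraries, a triangle for KFs replicate 3 and a square for HFs replicate 2. Mitosis and DNA replication levels fall in heart and rise in kidney, Hox levels stay apart by organ, KFs replicate 3 is the highest KFs library for epithelial genes and HFs replicate 2 the highest library for proximal tubule genes.

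KFs replicate 3 decided many calls. Of the 4347 genes called with it, 92.7% were also called without it, and of the 5962 called without it, 67.6% were called with it. The 318 genes called only with it were higher in kidney for 298 and in heart for 20, and the 1933 called only without it were higher in heart for 1297 and in kidney for 636. Of the genes called only with it, *Ppl*, the desmosomal periplakin, was at 3.07, 2.02 and 33.2 CPM in KFs, and *Dpysl5* at 0.0404, 0, and 1.64 CPM. The difference of *Ppl* moved from -4.31 ± 1.16 (adjusted p = 0.0124) to -1.9 ± 0.79 (adjusted p = 0.0717). The other 3 of this kind, *Tecpr2*, *Akap8* and *Dhx16*, had small differences of -0.49, -0.44 and -0.4, whose calls were also lost without other single libraries, HFs replicates 1 and 2 and KFs replicate 2 among them for all 3 (adjusted p = 0.0526 to 0.0985). Of the genes called only without it, *Lama5*, a laminin chain of epithelial basement membrane, fell in kidney from 198, 202 and 216 CPM in KFc to 25.7 and 18.6 CPM in KFs, with 261 CPM in KFs replicate 3. Its difference was 1.87 ± 0.91 (adjusted p = 0.149) with that library and 4.14 ± 0.24 (adjusted p = 6.47e-08) without it. *Cd24a*, a surface protein of tubular epithelium, was at 10.6, 14.9 and 158 CPM in KFs, *Adgrg1* at 3.56, 3.17 and 67.3 CPM, *Ptpn13* at 90.8, 85.5 and 489 CPM and *Anxa8* at 7.48, 6.31 and 51.0 CPM. In each of them the library labelled KFs replicate 3 was more than the other KFs libraries together.

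**Figure D5:**
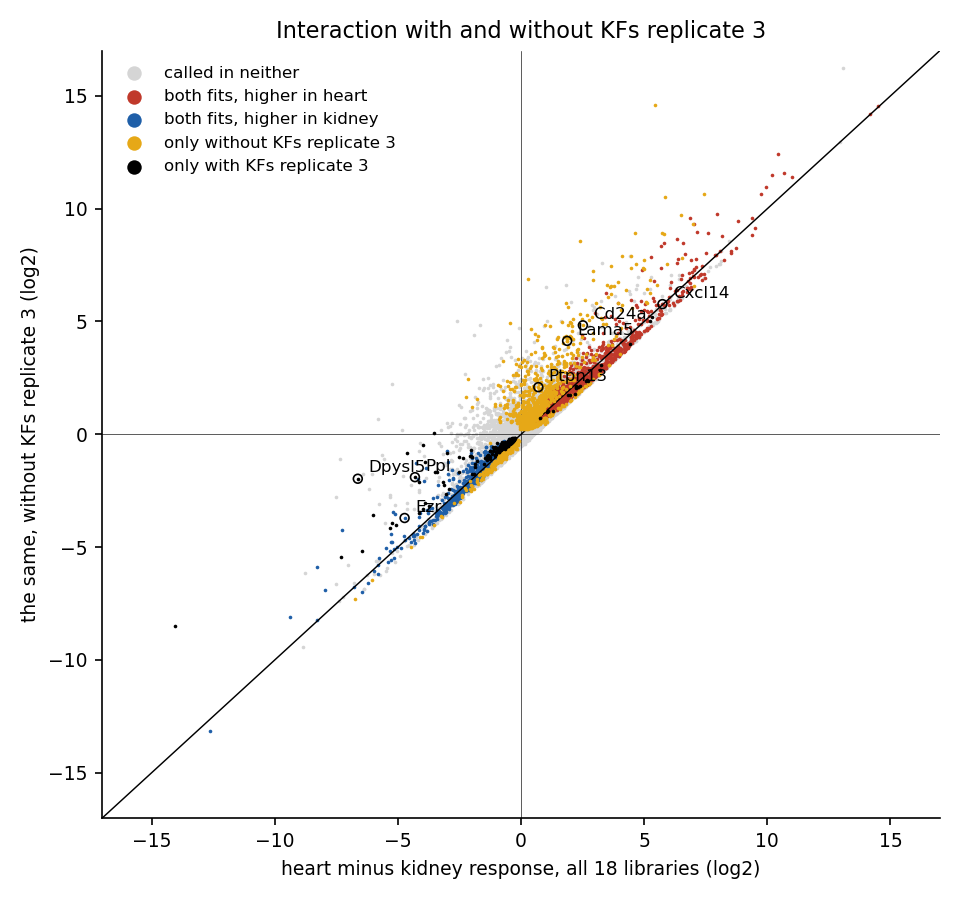
Difference in response (heart minus kidney, log2) of every gene tested in both fits, with all 18 libraries on the x axis and without KFs replicate 3 on the y axis. Red and blue points were called in both fits, yellow points (called only without it) lie mostly above the diagonal and black points (318 genes) were called only with it.

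Genes for which all libraries of some group held 3 counts or fewer are given by their levels. Among those higher in heart, *Cilp*, a cartilage matrix protein, was at 31.8, 47.9 and 11.6 CPM in HFs, 0.0364, 0 and 0.147 CPM in HFc, 32.8, 2.08 and 0.16 CPM in KFs and 5.82, 7.36 and 6.18 CPM in KFc. *C1qtnf3* was at 1.08, 4.54 and 0.19 CPM in HFs and 0.147 CPM or less in HFc, against 17.5, 3.04 and 0.521 CPM in KFs and 20.7, 29.3 and 27.0 CPM in KFc. For both, KFs ran from near or above the KFc level to far below it, and *C1qtnf3* was not called without HFs replicate 2 (adjusted p = 0.0684). Among those higher in kidney, the serine protease inhibitor *Serpina3i* was at 6.35, 3.17 and 19.9 CPM in KFs and 0 in KFc, against 8.84, 9.65 and 18 CPM in HFs and 1.97, 0.745 and 1.97 CPM in HFc. The homeobox gene *Rhox5* and the adaptor *Kank4* were at 0.281 to 0.364 and at 0.321 to 1.17 CPM in KFs and at 0.112 CPM or less in KFc, with 4.37 to 10.7 and 0.57 to 4.62 CPM in heart. *Crct1* was at 4.48, 3.05 and 3.64 CPM in HFc and did not exceed 0.299 CPM in HFs, KFs or KFc, and its call was lost when any 1 heart or kidney library other than KFs replicates 1 and 3 was left out (adjusted p = 1.0 without KFs replicate 2).

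Tail fibroblasts, which shared the host site with both, are set beside these values as a description. For mitosis genes the median response was 0.52 in tail against -0.77 in heart and 1.70 in kidney, and for DNA replication 0.32 against -0.75 and 1.25. For sterol synthesis it was -1.03 in tail against -2.14 and -0.62, and for myofibroblast contractile genes -1.36 against -1.34 and -1.41. On the first 3 lists tail thus lay between heart and kidney. The tail response of *Cxcl14* was -1.13, of *Igfbp5* 3.39, of *Prg4* -0.33 and of *Tubb3* -0.41. Of the 1750 genes higher in heart, 1102 had a tail response nearer to kidney and 648 nearer to heart, and of the 2279 higher in kidney, 1574 were nearer to kidney and 705 nearer to heart with 18 libraries.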

How the data were processed

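Expected counts per gene were deposited by the authors as whole numbers, 1 column per library, without normalization. According to the study's methods, 75-base single-end reads of stranded libraries were aligned to GRCm38 with Bowtie2 within RSEM, while the submitters' processing notes list Bowtie, RSEM and mm9. Of 38924 identifiers, 37607 had a symbol in GENCODE M21, from which GRCm38 positions were taken.

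The heart response minus the kidney response was tested with edgeR's quasi-likelihood test (edgeR 4.0.16 in R 4.3.3), with TMM scaling, 1 mean per group, low genes removed by filterByExpr and Benjamini-Hochberg adjustment over all genes tested, on 18 libraries and again without KFs replicate 3. The SE is the size of the log2 value divided by the square root of F. The procedure was tested on simulated data, but the outcome is not given here, so no error rate is claimed from it. CPM used the TMM-scaled totals of all 18 libraries, of 17927838 to 32245168 counts. Because no molecular identifiers are named, the floor of 3 counts covers counting error only.

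The members and gene lists were chosen with earlier results of these data known. Of 1066 list symbols 1063 matched, and 1 mistyped entry was removed. The list of clustered histone genes was added after its values were seen. Named were the 10 protein-coding genes per direction with the largest difference in both fits and a mean of at least 1 CPM in every group, the 5 per direction with the highest level among genes at or under 3 counts throughout a group, up to 4 members per list called in both fits and, per fit, the 5 with the smallest adjusted p among genes called in that fit only. Not all genes under this rule are described, and some are not reported here. Of the names outside it, *Hmgcs1*, *Tnnt2* and *Kap* are marked where they are given. Others, such as *Pttg1*, *Rad51d*, *Tm7sf2*, *Abca1*, *Abcg1*, *Epcam*, *C1qa*, *C5ar1* and *Myh6*, are not marked. Promoters (RefSeq, GRCm38.p6) were searched on both strands, leaving out chromosome 18.

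Alternatives were DESeq2 1.42.0, other scalings, filters and thresholds, limma 3.58.1 voom with library weights, the replicate number as a block, the proximal tubule level as a covariate, fits of heart and kidney libraries only and each heart and kidney replicate left out. The replicate numbers did not pair the libraries. Tables and figures were made in Python 3.11.15 (pandas 2.3.3, numpy 2.4.6, matplotlib 3.10.9).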

Additional observations from a re-analysis of the deposited data

Results flagged for a closer look

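The heart and kidney responses differed for 4347 genes with all 18 libraries and for 5962 genes without KFs replicate 3, by the test of the difference itself. Sex-linked genes, which belong to no comparison described above, set KFs replicate 3 apart, with *Xist* at 1490 CPM and Y-linked genes at a summed 0.722 CPM (18 counts), against at most 0.404 CPM and at least 175 CPM in the other libraries. The source of this library was not tested beyond these values and the marker levels given above.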

How the results depend on the processing

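Of 4347 genes called with 18 libraries, the number fell to 2772 (1106 higher in heart, 1666 in kidney) with the proximal tubule level as a covariate, to 2386 (899 and 1487) at an adjusted p under 0.01 and to 2176 (1170 and 1006) with a log2 difference above 1 or below -1, and with the latter from 5962 to 2828 (1775 and 1053) without KFs replicate 3. Fits of the 12 heart and kidney libraries called 3031, of them 1627 higher in kidney. Leaving out 1 heart or kidney library gave 3249 (without HFs replicate 2) to 5962 genes (without KFs replicate 3), of them 1390 (without HFc replicate 2) to 3047 higher in heart and 1688 to 2915 higher in kidney. Without both HFs replicate 2 and KFs replicate 3, an alternative chosen after seeing the data, 5469 were called (2450 and 3019). Library size alone in place of TMM moved the share higher in heart from 40.7% to 31.2% (17 libraries, from 51.1% to 42.6%) and the median of all genes from -0.03 to -0.14. DESeq2 and DESeq2 size factors moved that share to 49.2% and 47.9%. DESeq2 called 4904 genes, DESeq2 size factors 4198, no filter 3587 and voom with library weights 4445. Under voom *Hba-a2* and *Hbb-bs*, not called in any fit, changed sign to -0.66 and -0.62. The replicate block gave 4126 genes (1686 and 2440), and 5460 without KFs replicate 3, with correlations of same-numbered libraries between -0.163 and 0.0537. Of 180 named genes, the covariate removed the call of 38, the fit of heart and kidney libraries that of 19 and leaving out HFs replicate 2 that of 20. The cause of these changes was not tested. Low genes near the floor of 0.089 to 0.18 CPM (all 18 libraries) limit the precision of large folds.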
